A study of Drosophila melanogaster with 8 samples.

Results

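The proximal heterochromatin of chromosome arm 2L was examined here as the stretch from 22000000 to the centromeric end of the assembled arm at 23513712, 1514 kb in build BDGP6 (dm6). Its members were all H3K9me2 regions on 2L whose midpoint lay at or past 22000000. There were 915 such regions, of 31871 in the 3 lists made by the authors for the whole genome. In this stretch 252 regions had more H3K9me2 in NelfA*/+ flies, 41 had more in control siblings, and 622 were common to both genotypes. The first region inside this limit was a common region at 2L:21999884-22000290 (score 0.423), and the last outside it was a common region at 2L:21998361-21998568 (score 0.559). The question was in which direction and over which sequences H3K9me2 differed between the genotypes in this heterochromatin. H3K9me2 ChIP-seq was performed with antibody ab1220 on whole heads of male flies at Day 50 of adult life. NelfA*/+ flies (genotype +/+; +/NELF-A*) carried 1 copy of the Nelf-A allele KG09483, a P-element insertion, after backcrossing to the w1118 background. Control siblings (+/+; +/+) came from the same backcross and lacked the insertion. Each genotype had 2 ChIP and 2 input libraries, each made from pooled heads, and whole heads mix neurons with many other cell types. The lists give 1 score per region and no value per library. The spread between replicates and the sequencing depth are therefore unknown, no difference could be tested over samples, and every comparison below is a description. A change in every cell and a change in the share of cells that carry the mark cannot be told apart.

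Heterochromatin is the compact, repeat-rich part of the genome around centromeres. Di- and trimethylation of lysine 9 of histone H3, bound by HP1 proteins, keeps most transposable elements (TEs) there silent. The proximal part of 2L is a classical place to study it in Drosophila, because it also holds essential genes that are transcribed from within heterochromatin. Among them are light (lt), which encodes a subunit of the vesicle-tethering machinery of the lysosome, concertina (cta), a G protein alpha subunit, and the ribosomal protein gene RpL5. The gene light is known to need a heterochromatic environment for normal expression.

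The sequences that carried the differences are shown first, to make visible how closely regions of opposite direction lay and how they differed in base composition. All are from 2L of BDGP6, plus strand, 5′ to 3′, from the RefSeq copy of the assembly, with G and C in capitals. Of the 2 pairs of neighbours, the first was the closest pair of opposite direction in the stretch. The NelfA*/+-higher region lay at 2L:22507723-22507962 (score 1.31, GC content 45.4%) and the control-higher region at 2L:22508066-22508312 (score 1.20, GC content 39.7%), 103 bp apart in intergenic sequence.
NelfA*/+-higher, 2L:22507723-22507962: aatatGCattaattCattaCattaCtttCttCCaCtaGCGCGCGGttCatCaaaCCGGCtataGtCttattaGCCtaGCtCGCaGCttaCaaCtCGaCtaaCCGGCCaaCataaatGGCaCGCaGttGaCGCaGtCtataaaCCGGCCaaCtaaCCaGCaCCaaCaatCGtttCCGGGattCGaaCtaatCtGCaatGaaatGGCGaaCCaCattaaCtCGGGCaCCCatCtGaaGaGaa
control-higher, 2L:22508066-22508312: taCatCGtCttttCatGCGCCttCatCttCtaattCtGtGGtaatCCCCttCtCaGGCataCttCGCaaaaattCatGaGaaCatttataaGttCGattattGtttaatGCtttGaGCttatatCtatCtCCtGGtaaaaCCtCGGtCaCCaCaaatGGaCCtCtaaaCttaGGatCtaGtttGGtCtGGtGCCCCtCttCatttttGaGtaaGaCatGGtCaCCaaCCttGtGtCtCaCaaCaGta
The second pair was the closest in which both scores reached 3, in an intron of CG40006, with a gap of 116 bp. The control-higher region at 2L:22719934-22720139 had a score of 3.27 and a GC content of 33.5%, and the NelfA*/+-higher region at 2L:22720256-22720490 had a score of 3.13 and a GC content of 43.0%.
control-higher, 2L:22719934-22720139: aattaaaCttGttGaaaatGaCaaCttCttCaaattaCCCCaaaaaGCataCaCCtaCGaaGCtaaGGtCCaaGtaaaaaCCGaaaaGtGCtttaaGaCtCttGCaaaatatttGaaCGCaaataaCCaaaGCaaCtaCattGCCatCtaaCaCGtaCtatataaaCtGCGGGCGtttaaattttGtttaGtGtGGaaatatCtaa
NelfA*/+-higher, 2L:22720256-22720490: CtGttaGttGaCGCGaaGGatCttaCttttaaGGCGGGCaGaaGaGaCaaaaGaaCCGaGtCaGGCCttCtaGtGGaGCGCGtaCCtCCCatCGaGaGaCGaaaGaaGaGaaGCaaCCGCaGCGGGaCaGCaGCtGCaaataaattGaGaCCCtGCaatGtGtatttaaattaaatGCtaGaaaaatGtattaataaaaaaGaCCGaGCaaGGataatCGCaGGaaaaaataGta
Shown next are the control-higher region with the highest score (3.61), in an intron of CG3635, and the NelfA*/+-higher region with the highest GC content (67.0%, score 1.54), which is intergenic and lies wholly inside a common region. Of the 100-base words of this GC-rich region, 0% occur once in the reference. The authors' reads were paired and longer than such words, and how far they can be assigned to this place was not tested. Last is the central part (300 bases) of the NelfA*/+-higher region at 2L:23426720-23427049, an AT-rich intergenic region (GC content 25.8%) with a score of 5.36.
control-higher, 2L:22178566-22178804: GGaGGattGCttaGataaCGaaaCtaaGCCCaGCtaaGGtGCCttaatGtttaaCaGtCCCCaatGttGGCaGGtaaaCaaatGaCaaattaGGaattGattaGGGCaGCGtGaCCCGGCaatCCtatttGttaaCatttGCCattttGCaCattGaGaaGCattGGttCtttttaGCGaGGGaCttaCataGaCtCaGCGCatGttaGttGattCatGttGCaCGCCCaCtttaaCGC
NelfA*/+-higher, 2L:23279654-23279862: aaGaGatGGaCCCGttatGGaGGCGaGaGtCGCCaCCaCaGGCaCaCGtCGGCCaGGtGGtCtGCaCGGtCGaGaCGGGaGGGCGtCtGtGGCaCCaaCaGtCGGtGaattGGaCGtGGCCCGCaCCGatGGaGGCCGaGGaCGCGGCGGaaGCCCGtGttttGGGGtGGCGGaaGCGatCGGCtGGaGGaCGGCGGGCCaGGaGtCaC
NelfA*/+-higher, 2L:23426735-23427034: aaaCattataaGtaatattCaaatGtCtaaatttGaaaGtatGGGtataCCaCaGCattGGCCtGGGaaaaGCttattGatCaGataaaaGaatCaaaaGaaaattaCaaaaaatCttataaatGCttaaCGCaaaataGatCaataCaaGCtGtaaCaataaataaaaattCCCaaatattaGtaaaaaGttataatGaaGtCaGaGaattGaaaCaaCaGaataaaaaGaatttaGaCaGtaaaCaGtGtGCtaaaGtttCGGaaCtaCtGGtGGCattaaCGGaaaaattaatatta
In both pairs the NelfA*/+-higher member held more G and C than its neighbour. This was so in 8 of the 10 closest pairs of opposite direction. In the other 2 the control-higher member held more, with 53.2% against 48.7% (gap 112 bp) and 48.8% against 42.9% (gap 142 bp). The AT-rich region with the score of 5.36 likewise did not follow this order.

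H3K9me2 differed mostly in 1 direction in the proximal heterochromatin of 2L. Regions higher in NelfA*/+ made up 27.5% of the 915 regions, beside 29.4% of all regions of the genome, and regions higher in control siblings made up 4.48%, beside 5.64% of all regions. Among the differential regions alone, 86.0% were higher in NelfA*/+, a ratio of 6.15 to 1, beside 83.9% over the whole series. These shares lay near those of the series, so the proximal heterochromatin of 2L is not set apart by them. In length, NelfA*/+-higher regions covered 89.1 kb (5.89% of the stretch), control-higher regions 11.6 kb (0.768%) and common regions 333 kb (22.0%). Together the 3 lists covered 26.5% of the stretch.

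The part of 2L just outside, of equal length, held far fewer regions. It had 76 NelfA*/+-higher, 15 control-higher and 171 common regions, which covered 6.51% of its bases. Among its differential regions 83.5% were higher in NelfA*/+. The rest of 2L before 22000000 had a share of 91.1%. The centromeric stretches of equal length on 2R and 3L were denser than that of 2L. On 2R there were 337, 67 and 805 regions in the same order, with 38.9% of bases in any list and 83.4% of differential regions higher in NelfA*/+. On 3L there were 303, 73 and 751, with 32.4% of bases and 80.6%. None of these differences between stretches was tested.

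Regions higher in NelfA*/+ were short, with a median of 298 bp and a longest region of 1345 bp. Control-higher regions had a median of 247 bp (longest 569 bp) and common regions a median of 405 bp (longest 3058 bp). The score is the authors' value from the MACS2 comparison and its scale is not named. It is given for each list separately, and whether it can be compared between lists is not known. Its median was 2.15 (1.24 to 6.92) in the NelfA*/+ list, 1.93 (1.20 to 3.61) in the control list and 0.252 (0.0368 to 0.705) in the common list. A score of at least 3 was reached by 54 NelfA*/+-higher regions (21.4%) and by 2 control-higher regions (4.88%). Over the whole series both shares were higher, at 28.0% and 15.4%.

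The NelfA*/+-higher region with the highest score (6.92) lay at 2L:22300789-22301179, over annotated copies of the G5 and invader2 retrotransposons. Only 6.65% of the 100-base words of this region occur once in the reference, and the part of this in its score was not tested. It was followed by the region printed above from 2L:23426720-23427049 and by 2L:22377156-22377562 (score 5.21), over copies of the F element and of diver2. The region at 2L:22900026-22900282 (score 5.18) lay over a GATE element in sequence without any 100-base word found once. The last of these 5 lay at 2L:22194428-22195038 (score 4.57), in an intron of Ir40a over a copy of 1360. The longest regions of the list lay at 2L:23187271-23188615 (1345 bp, score 2.85), 2L:22406464-22407644 (1181 bp, score 3.42, over gypsy8) and 2L:22481790-22482776 (987 bp, score 2.03). The region nearest the centromeric end lay at 2L:23513408-23513655 (score 2.15), fully soft-masked, with 4.37% of its 100-base words found once.

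Among control-higher regions, the highest scores were those in introns of CG3635 (3.61) and CG40006 (3.27), printed above. They were followed by an intergenic region at 2L:23244452-23244656 (2.87), one over a Doc element at 2L:23468495-23468782 (2.73), and another intronic region of CG40006 at 2L:22685002-22685245 (2.65). None of these 5 overlapped a common region. The longest lay at 2L:22339788-22340356 (569 bp) near an internal promoter of Marf1, 2L:22713676-22714196 (521 bp) in CG40006 and 2L:23350192-23350696 (505 bp) between genes. The one nearest the centromeric end lay at 2L:23499915-23500170 (score 2.64) over a roo element. The common regions with the highest scores lay at 2L:22331172-22331399 (0.705, an intron of Marf1), 2L:22521842-22522055 (0.659), 2L:23238186-23238415 (0.657, over Rt1b), 2L:23089599-23089923 (0.637) and 2L:22272145-22272425 (0.630). The longest common regions were 2L:23431669-23434726 (3058 bp), 2L:22656329-22659102 (2774 bp) and 2L:22699328-22701407 (2080 bp), the last ones both in CG40006. The common region nearest the centromeric end, 2L:23513198-23513407, directly adjoined the last NelfA*/+-higher region.

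Along the stretch, every window of 50 kb held common regions. The number of regions per window ranged from 4 to 66. NelfA*/+-higher regions were most frequent at 2L:22350001-22400000 (21 regions, beside 3 control-higher and 42 common), at 2L:23400001-23450000 (16) and, with 15 each, at 2L:22050001-22100000, 2L:22700001-22750000 and 2L:23450001-23500000. Control-higher regions numbered at most 4 per window, at 2L:22150001-22200000, 2L:22650001-22700000 and 2L:22700001-22750000. In none of the 31 windows did control-higher regions outnumber NelfA*/+-higher ones. Only 1 window had no NelfA*/+-higher region, while 10 had no control-higher region. Over the 30 full windows, counts of NelfA*/+-higher regions followed those of common regions (Pearson's r = 0.88, Spearman's rho = 0.86). Counts of control-higher regions followed them less closely (r = 0.58, rho = 0.59). All 3 lists come from the same signal tracks, so these correlations only describe where regions were called. Counts showed no trend toward the centromere (rho between -0.06 and 0.07). In the outer 757 kb 84.0% of the differential regions were higher in NelfA*/+ (137 and 26 regions), and in the inner 757 kb 88.5% (115 and 15 regions).

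**Figure D1:**
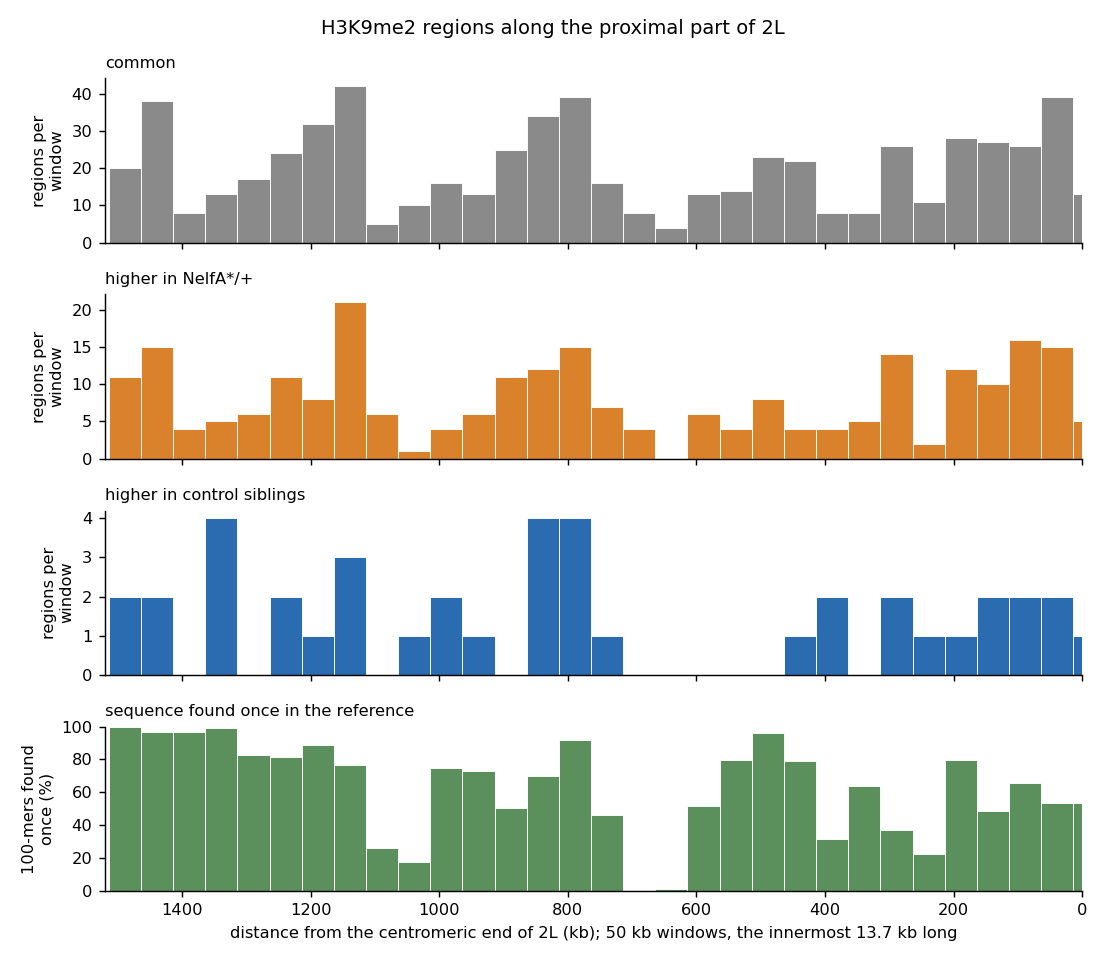
Number of common, NelfA*/+-higher and control-higher H3K9me2 regions per window of 50 kb (vertical axes, each with its own scale), against the distance from the centromeric end of 2L in kb. The lowest panel gives the percentage of 100-base words of each window that occur once in the reference; the windows near 700 kb from the end are close to 0% there and hold 12 and 4 regions.

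Control-higher regions mostly lay singly among NelfA*/+-higher ones. With 41 control-higher against 252 NelfA*/+-higher regions, most orders would give this, and the arrangement was not tested. When the differential regions were read in order along the arm, the 41 control-higher regions fell into 34 runs, 28 of them of a single region, and the longest run had 3. The longest unbroken run of NelfA*/+-higher regions had 23 members over 235 kb. A NelfA*/+-higher region lay within 1 kb of 14 control-higher regions and within 5 kb of 35 of them, and the farthest control-higher region was 8769 bp away. When regions of any list less than 1 kb apart were joined, 210 domains resulted, with a median of 1.18 kb. Of these, 72 held common regions only, 15 NelfA*/+-higher regions only, 5 control-higher regions only, and 27 held all 3 kinds. The longest domain, 25.0 kb at 2L:22686982-22712014 in CG40006, held 12 NelfA*/+-higher, 25 common and 0 control-higher regions, which covered 76.1% of it.

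Most differential regions lay on common ones or within 1 kb of them. Of the 252 NelfA*/+-higher regions, 167 (66.3%) overlapped a common region, 29 of them lying wholly inside one, and 236 (93.7%) overlapped one or lay within 1 kb. Of the 41 control-higher regions, 22 (53.7%) overlapped a common region, 3 wholly inside, and 36 (87.8%) overlapped one or lay within 1 kb. Common regions covered 22.0% of the stretch, with 41.1 per 100 kb. The share of all bases within 1 kb of one was not computed, so these shares have no background. The lists also come from the same signal tracks. Most NelfA*/+-higher regions that overlapped did so at an edge. There were 90 that crossed 1 end of a common region, 43 that bridged neighbouring common regions and 5 that spanned one. Seen from the common regions, 187 of 622 (30.1%) were touched by a NelfA*/+-higher region, 25 (4.02%) by a control-higher region and 5 by both. Longer common regions were touched more often, with 35 of the 65 of at least 1 kb (53.8%) and 28 of the 155 shortest (18.1%) touched by a NelfA*/+-higher region. Their median lengths were 1257 bp and 233 bp. An overlap of 1 bp counted as a touch, so longer regions are touched more often by construction. The farthest NelfA*/+-higher region from any common region lay 14134 bp away.

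The lists differed in base composition. The median GC content was 47.5% for NelfA*/+-higher regions (interquartile range 42.9% to 52.6%), 44.6% for common regions (41.5% to 48.5%) and 39.0% for control-higher regions (37.0% to 42.7%). All bases of the stretch together had 39.3%. The medians of the 3 lists, in the same order, were 46.8%, 43.5% and 38.9% on the centromeric stretch of 2R. They were 45.4%, 42.5% and 38.3% on that of 3L, and 49.8%, 49.0% and 43.8% on 2L just outside. The order of the lists by GC content is therefore not particular to this stretch. When the 293 differential regions were split by GC content into 5 groups of near-equal size, the share higher in NelfA*/+ was 61.0% in the group from 18.7% to 39.9% GC. It was 78.0% in the next group and 96.6%, 96.6% and 98.3% in the remaining groups. Of the 41 control-higher regions, 23 lay in the lowest of these groups and 1 in the highest. Regions free of soft-masked bases had median GC contents of 50.0% (83 NelfA*/+-higher), 47.0% (129 common) and 44.7% (6 control-higher). GC content is known to affect the recovery of fragments in sequencing libraries, and its part in the direction of the differences was not tested.

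**Figure D2:**
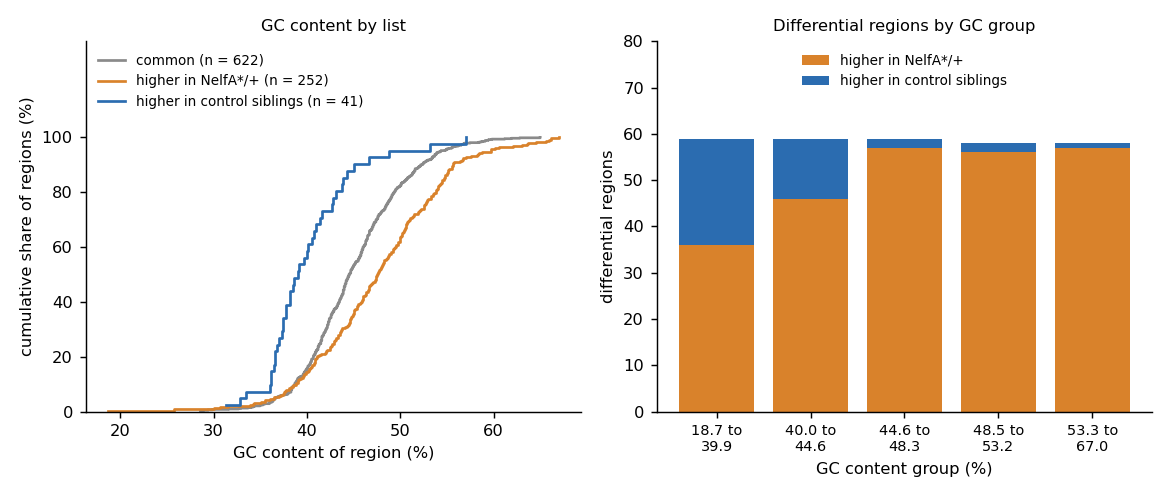
Left, cumulative share of regions (%) by GC content (%) for the 3 lists; the control-higher curve lies to the left (median 39.0%), the NelfA*/+-higher curve to the right (median 47.5%). Right, number of differential regions of each direction in 5 groups by GC content, with 23 control-higher regions in the lowest group and 1 in the highest.

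Both kinds of difference were more frequent outside soft-masked repeats than in them. Of the soft-masked bases, 3.21% lay in NelfA*/+-higher, 0.525% in control-higher and 11.4% in common regions, against 7.58%, 0.922% and 28.8% of the other bases. Annotated TEs did not share this low coverage. Of their bases, 7.55% lay in NelfA*/+-higher, 0.895% in control-higher and 22.6% in common regions, against 5.89%, 0.768% and 22.0% of all bases. In soft-masked sequence outside annotated TEs the shares were 2.37%, 0.325% and 9.81%. How far sequence can be told apart by mapping also differed along the stretch. Overall 62.6% of the 100-base words in the stretch occur once in the reference. This share was 73.4% for bases in NelfA*/+-higher regions, 82.3% in control-higher regions, 77.1% in common regions and 57.6% in bases outside all lists. Over the 30 full windows, the share of words found once and the number of regions had a Spearman's rho of 0.42. Regions with at least 90% of their words found once numbered 141 NelfA*/+-higher, 25 control-higher and 346 common, and 84.9% of these differential regions were higher in NelfA*/+. Their median GC contents were 46.2%, 38.5% and 44.5%. The share and the order of the medians were close to those over all regions.

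Several long intervals held no region of any list. The longest, 60.0 kb at 2L:22420125-22480142, was 99.0% soft-masked, with 12.0% of words found once. The intervals at 2L:22835607-22879344 (43.7 kb) and 2L:22782815-22820689 (37.9 kb) had 0.853% and 0.502% of words found once. In contrast, the interval at 2L:22142252-22174055 (31.8 kb), over the inner part of CG42748, dunk and Clamp, had 99.3%. That at 2L:23147685-23182247 (34.6 kb), which contains CG12567, had 65.5%.

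The intervals at 2L:22835607-22879344 and 2L:22782815-22820689 fell in a block of 121 kb at 2L:22782860-22904083 that is present again, inverted, at 2R:749032-870230. At the matching place, 98.8% of the 100-base words of the block were identical. The block made up 8.01% of the stretch and held 5 NelfA*/+-higher, 0 control-higher and 14 common regions, 15.7 regions per 100 kb against 64.3 in the rest of the stretch. The 2R copy held 16, 2 and 40 regions. The regions of the copies did not repeat each other. Only 3 of the 19 regions on 2L had a region of any list at the matching place on 2R. Regions covered 5.46% of the block on 2L, 19.5% on 2R and 0.718% on both. Since nearly all 100-base words of this block are found at both places, the copy that carried the mark cannot be told apart from these lists. How reads that match both places were placed is not given in the sources used here. Without the block 247, 41 and 608 regions were left and 85.8% of the differential regions were higher in NelfA*/+. The longest interval without control-higher regions, 289 kb at 2L:22774354-23063004, holds the whole block as well as lt, cta and Cht10. It contained 23 NelfA*/+-higher and 73 common regions. The only window without a NelfA*/+-higher region, 2L:22850001-22900000, lies inside the block.

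Genes in the stretch divided into a few that were densely covered and many that were not. Of 37 protein-coding genes, 23 had a region of any list over the gene body or within 1 kb, 18 a NelfA*/+-higher region, 6 a control-higher region and 22 a common region. Only Grl40a had more control-higher (1) than NelfA*/+-higher (0) regions, and 5 genes had both. The 4 genes with the most regions, CG40006, Marf1, Ir40a and Cht10, had 242 regions between them. All of the 12 outermost genes, from CG31693 to CG6675, had at least 1 region, and so did 11 of the 25 genes further in. This split falls just before CG3651, the first gene without any region, so the count of the outer group is fixed by its placing.

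CG40006 (FBgn0058006, 2L:22622417-22756349, minus strand), the longest gene of the stretch at 134 kb, had 37 NelfA*/+-higher, 8 control-higher and 96 common regions. Together they covered 51.6% of its body. Scores of its NelfA*/+-higher regions reached 3.94 (2L:22646020-22646704) and those of its control-higher regions 3.27. Both kinds lay along its body, with a run of 13 NelfA*/+-higher regions at 2L:22690352-22713296 and a run of 3 control-higher ones at 2L:22672379-22685245. The control-higher regions all lay in the first 100 kb from its 5′ end. Marf1 (FBgn0039972, 60.0 kb), the homologue of a regulator of meiosis and mRNA stability in mammals, had 12 NelfA*/+-higher, 2 control-higher and 48 common regions, and 43.9% of its body was covered. Its NelfA*/+-higher region with the highest score (4.33) lay at 2L:22350459-22350783. Ir40a (FBgn0259683, 24.9 kb), an ionotropic receptor of humidity-sensing neurons in the antenna, had 4 NelfA*/+-higher, 3 control-higher and 18 common regions. Its NelfA*/+-higher scores were 1.89, 4.57, 1.82 and 2.09, and its control-higher scores were 2.42, 2.59 and 2.24. Ir40a and CG40006 were the only genes with at least 3 control-higher regions.

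**Figure D3:**
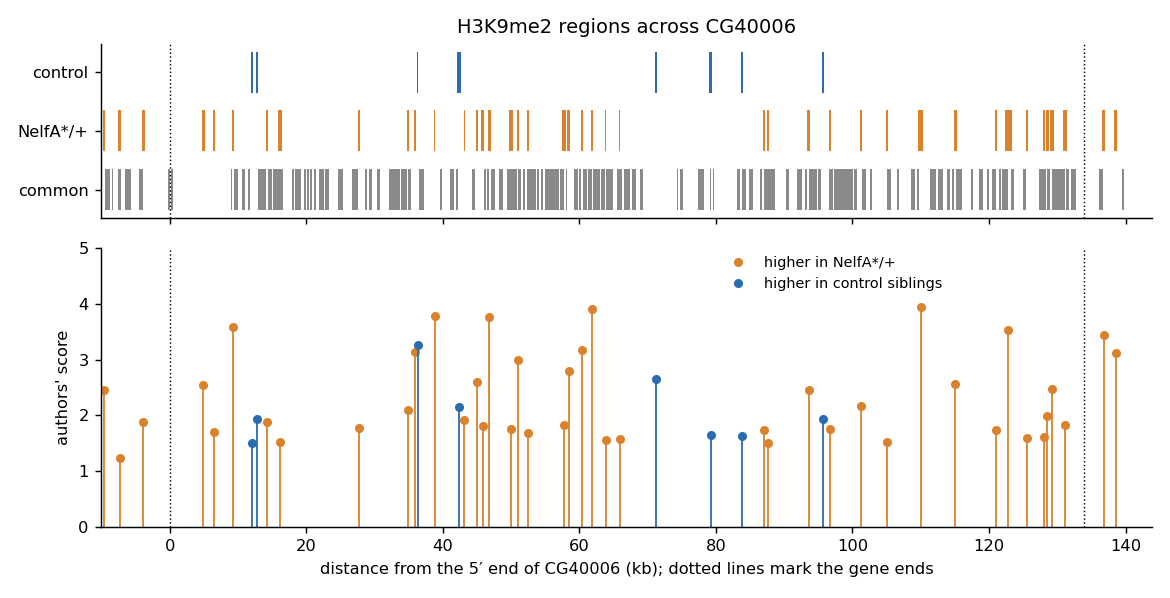
Regions across CG40006 and 10 kb on either side, against the distance from its 5′ end in kb. Upper panel, extent of common, NelfA*/+-higher and control-higher regions; lower panel, the authors' score of each differential region at its midpoint, with the highest NelfA*/+-higher score in the gene at 3.94 and the highest control-higher score at 3.27.

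Cht10 (FBgn0250907, 26.3 kb), a chitinase gene, had 3 NelfA*/+-higher, 0 control-higher and 11 common regions. They covered 70.8% of its exons and 9.15% of its introns. In lt (FBgn0002566, 18.3 kb) the order was the other way round, with 0% of exon bases and 10.6% of intron bases covered by 2 NelfA*/+-higher and 4 common regions. The NelfA*/+-higher scores there were 2.67 and 1.28. A further NelfA*/+-higher region lay 0.583 kb from the start of lt. CG3635 had 3 NelfA*/+-higher regions (scores 4.11, 1.77 and 3.90), 1 control-higher and 3 common regions. In tio, which encodes the zinc finger protein Tiptop, 3 NelfA*/+-higher regions (scores 3.11, 2.80 and 1.94) covered 14.1% of the body, all in exons.

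Coverage of the smaller outer genes varied widely. In CG6675 the regions covered 94.4% of the body, in ttm3 86.9%, in CG31693 83.3%, in tplus3a 45.3%, in tplus3b 33.1%, in CG31601 30.4% and in Grl40a 23.8%. NelfA*/+-higher regions alone covered 56.6% of ttm3, 43.4% of CG6675, 31.5% of CG31693, 8.03% of CG31601 and 0% of tplus3a.

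**Figure D4:**
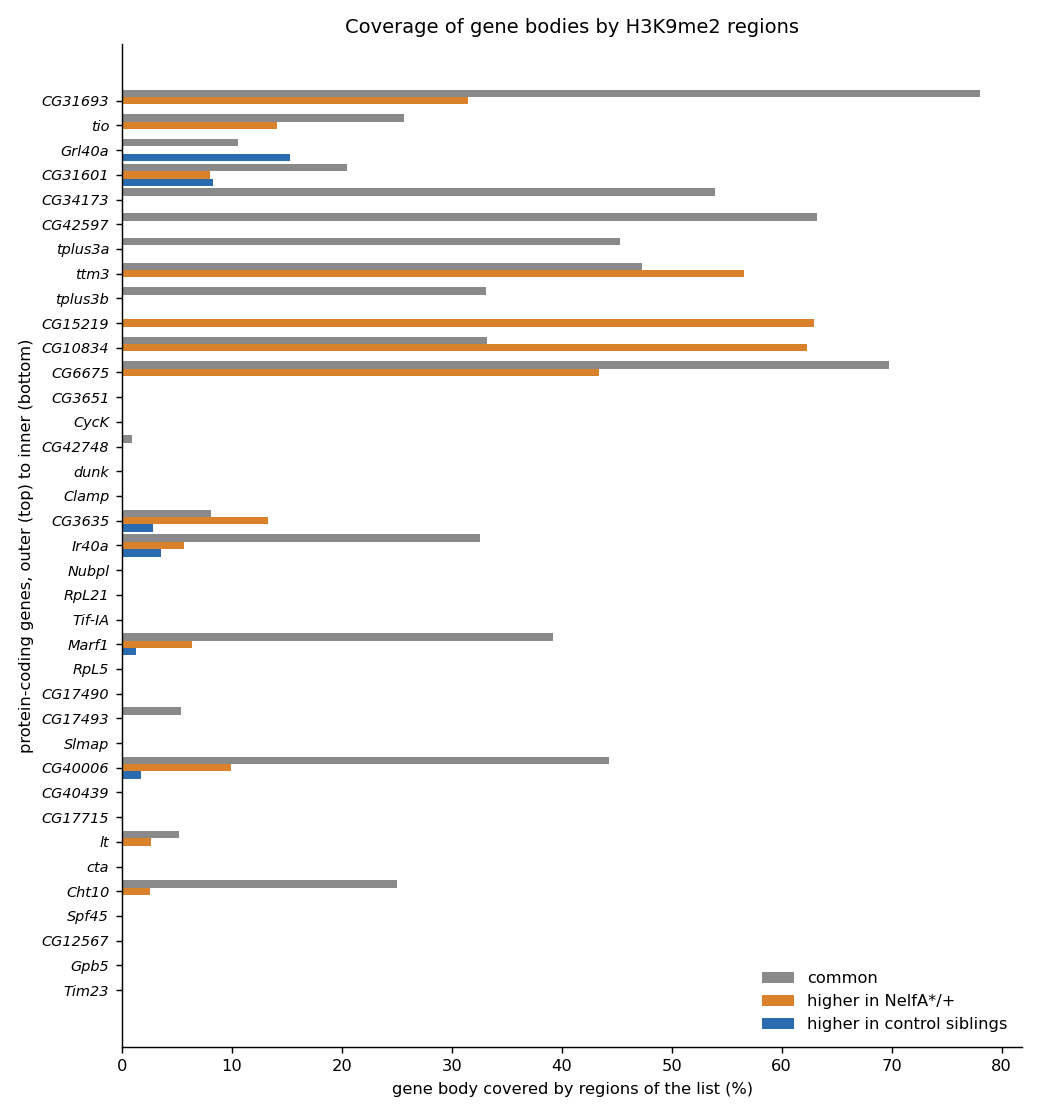
Percentage of each gene body covered by common, NelfA*/+-higher and control-higher regions for the 37 protein-coding genes, ordered from the outer limit of the stretch (top) to the centromeric end (bottom). The 12 genes outside CG3651, the first gene without a region nearby, all had one, and 17 genes had no covered base in the body.

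The 14 genes with no region of any list in the body or within 1 kb were CG3651, CycK (cyclin K), dunk, Clamp (a zinc finger protein of the dosage compensation pathway), Nubpl, RpL21, CG17490, Slmap, CG40439, CG17715, cta, Spf45 (a splicing factor), CG12567 and Tim23 (mitochondrial protein import). RpL5 had 0 covered bases in the body and 1 common region within 1 kb. Of the 14, 10 had at least 90% of their 100-base words found once, among them RpL21, Clamp and CycK. The same was true of 17 of the 23 genes with regions, a similar share. CG40439 and CG17715 had 0% and lie in the block shared with 2R, and cta had 86.2%. The part of mapping in the absence of regions from CG40439 and CG17715 was not tested. The start of a gene was inside a region in 4 of 37 genes, and the median distance from a start to the nearest region was 1.80 kb. Bases within 1 kb of a transcription start were covered by common regions at 11.2%, against 22.0% of the whole stretch. The corresponding values were 5.37% and 5.89% for NelfA*/+-higher regions, and 0.905% and 0.768% for control-higher regions. Haspin and ncm, also known as genes of chromosome 2 heterochromatin, lie outside the stretch in the annotation used and have no value here.

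By midpoint, most regions of each list lay between genes. This held for 171 NelfA*/+-higher (67.9%), 25 control-higher (61.0%) and 411 common regions (66.1%). Introns held 55 (21.8%), 12 (29.3%) and 151 (24.3%), promoters 18 (7.14%), 3 (7.32%) and 32 (5.14%), and exons 8 (3.17%), 1 (2.44%) and 28 (4.50%). Intergenic sequence makes up 67.5% and introns 19.2% of the stretch.

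TE copies were overlapped by a similar share of each list. The shares were 27.4% of NelfA*/+-higher, 29.3% of control-higher and 27.0% of common regions. Annotated TEs make up 20.4% of the bases of the stretch. The annotation of TEs is uneven along the stretch, and covers between 62.0% and 69.8% of bases in the windows from 2L:22200001 to 22400000 but 0% in others. Of 272 annotated copies, 55 (20.2%) carried a NelfA*/+-higher region, 13 (4.78%) a control-higher region and 110 (40.4%) a common region. Long copies carried regions more often. Of 90 copies of at least 1 kb, 40 (44.4%) had a NelfA*/+-higher region, against 15 of 182 shorter copies (8.24%). In bases, however, NelfA*/+-higher regions covered 7.71% of the long copies and 6.64% of the short ones.

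The families differed in this respect. All 5 annotated copies of Rt1b, a non-LTR retrotransposon, carried NelfA*/+-higher regions, which covered 32.2% of their bases. None of these 5 copies carried a control-higher region. The scores of the 9 regions concerned were between 1.68 and 3.37, and the GC content of Rt1b in the stretch was 52.3%. Of gypsy8, an LTR retrotransposon, 4 of 6 copies carried a NelfA*/+-higher region (21.9% of bases) and 2 carried a control-higher one. The annotated span of the longest gypsy8 copy (11377 bp, at 2L:22395373-22406749) held 6 NelfA*/+-higher, 1 control-higher and 7 common regions. A Stalker4 copy (2L:22396360-22402640) lies within this span and held 1, 1 and 5 of them, so the control-higher region there lay over Stalker4. NelfA*/+-higher regions were found in 3 of 5 F element copies, 3 of 9 diver2 copies, 1 of 8 HMS-Beagle copies, 3 of 16 Cr1a copies and 3 of 30 copies of 1360. They were found in 4 of 79 INE-1 copies, whose median length was 176 bp, and in 0 of 10 invader1 copies. Families whose names begin with gypsy had 6 of 15 copies with a NelfA*/+-higher region, 3 with a control-higher and 8 with a common region, and those whose names begin with diver had 3, 0 and 7 of 10. Annotated spans can be nested, as with F copies inside diver2, and a region in an inner copy was also counted for the copy around it. The values of a family can therefore include sequence of other families. Copies of a family share sequence, so reads may be spread among them and the copies are not independent.

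**Figure D5:**
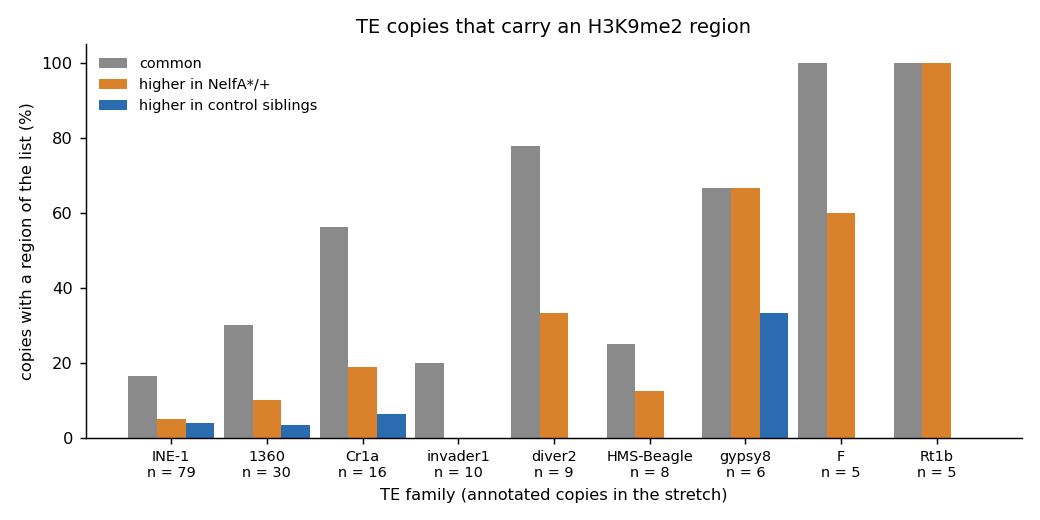
Percentage of annotated TE copies in the stretch that carry a common, NelfA*/+-higher or control-higher region, for the 9 families with at least 5 copies, with the number of copies under each name. NelfA*/+-higher regions touch 100% of the 5 Rt1b copies and 0% of the 10 invader1 copies.

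Satellite units were searched for in the regions and in windows of the median length of each list. Units of AAGAG in 3 head-to-tail copies, searched on both strands, were present in 0 of 252 NelfA*/+-higher, 0 of 41 control-higher and 1 of 622 common regions, and in 0% of windows. Units of AATAT in 3 copies were present in none of the regions and in 0.0661% of windows, which were taken at every kb of the stretch. Both units were rare in the regions and in the windows alike. GAGAG, which does not occur within repeats of the other units, was found in 45.6%, 34.1% and 53.2% of NelfA*/+-higher, control-higher and common regions. Its share in windows of the median length of each list was 32.2%, 26.9% and 40.6%. Regions vary in length and longer ones hold a short word more often, so these windows do not match the regions in length. A match is a description of sequence and not a binding site.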

How the data were processed

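H3K9me2 ChIP and input libraries from heads of NelfA*/+ flies and control siblings were sequenced by the authors. Per the submitters' notes, reads were mapped to BDGP6 with STAR 2.5 and processed with MACS2 2.1.1, whose bdgdiff command compares signal tracks without replicate variance. The handling of reads with several matches, the depths used and any pooling of replicates are not given in the sources used here. The deposited files are 3 lists with a position and a score per region. Genotypes were assigned to lists by their region counts, which equal those the study states for each class. No read counts are given, so depth is unknown and no interval is printed.

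Regions on 2L with a midpoint at or past 22000000 were taken from each list. Genes and TE copies came from Ensembl release 115, sequence and soft-masking from RefSeq. Overlap meant at least 1 bp, and promoters were 1 kb on either side of a transcription start. The share of words of 100 bases found once was counted over both strands of the whole reference. The authors' reads were paired and longer than these words, so this share only approximates how far reads can be placed. Regions, genes and TE families were named by a rule: the 5 highest scores, the 3 longest and the 1 nearest the centromere per list, the 3 windows with the most differential regions of each kind (with ties), the 12 genes with the most regions, genes with at least 3 control-higher regions, 6 genes of chromosome 2 heterochromatin, TE families with at least 5 copies, gypsy and diver. Scores of other genes, and windows beside them, were chosen after their values were seen. Sequences are shown only for regions that share no word of 40 bases with 2R (106 of 252 NelfA*/+-higher and 21 of 41 control-higher regions). Such a region can still match other places of the reference, as that at 2L:23279654-23279862 does. The members and lists were chosen with earlier results of these data known. Alternatives were other limits of the stretch, minimum lengths and scores, merging, covered bases, stricter overlap and soft-masking. The functions for overlap, distance and base composition were tested on 300 simulated regions, with 0 errors. Python 3.11.15, numpy 2.4.6, scipy 1.17.1 and matplotlib 3.10.9 were used.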

Additional observations from a re-analysis of the deposited data

How the results depend on the processing

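Regions higher in NelfA*/+ outnumbered control-higher ones under every alternative. Most alternatives were subsets of the same lists, so this direction could hardly turn. No separate check for a reversal was made. The share of differential regions higher in NelfA*/+ (86.0%) was 86.3% with the limit of the stretch 0.5 Mb further out or further in, 82.5% with neighbours of a list under 1 kb apart merged and 88.5% in covered bases. It was 92.8% for regions of at least 400 bp and 96.4% for scores of at least 3. The matching shares over the whole series were not computed for these limits. The counts of NelfA*/+-higher, control-higher and common regions were 164, 26 and 413 with the limit 0.5 Mb further in, and 64, 5 and 317 for regions of at least 400 bp. Scores of at least 3 left 54 NelfA*/+-higher and 2 control-higher regions, and merging left 215 common regions. The alternatives chosen after seeing the data were the share without the duplicated block (85.8%) and for regions with at least 90% of 100-base words found once (84.9%, with 141, 25 and 346 regions). Fewer regions enter each of these by construction. With an overlap of at least 50% of the region in place of 1 bp, 29.4% of NelfA*/+-higher and 19.5% of control-higher regions overlapped common ones. With at least 50% of bases soft-masked in place of an annotated TE, the shares over repeats were 16.7%, 22.0% and 16.6% for NelfA*/+-higher, control-higher and common regions. No paired analysis was possible because the lists hold no value per library. With 41 control-higher regions, shares of that list move by several points with a few regions, and the missing depth and replicate values limit every statement to where the authors called regions.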
